A study of Mus musculus with 20 samples.

Results

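The genotype effect was averaged over 3 bone marrow populations of CreER-Raptor-flox/flox mice (CreER-Raptor) and wild-type (WT) mice, with all 20 arrays of the series used. For each gene, the CreER-Raptor minus WT difference was taken in common myeloid progenitors (CMPs), in granulocyte-macrophage progenitors (GMPs) and in lineage-negative (Lin-) cells given M-CSF, and the mean of the 3 differences, each with equal weight, was tested as 1 contrast. Genes with the largest shared change were taken from those where the 3 differences had the same sign. Gene lists were described by calls on the mean, whatever the 3 signs. Each gene was represented by its single-gene probe set of highest mean signal, and 16638 genes were tested.

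The 6 groups were CreER-Raptor CMPs and WT CMPs (3 arrays each), CreER-Raptor GMPs and WT GMPs (3 arrays each), and CreER-Raptor and WT Lin- cells kept for 12 h with M-CSF at 10 ng/ml (4 arrays each). CMPs and GMPs were profiled straight after sorting, and all donors were females on a C57BL/6 background. The CreER-Raptor animals carried a CreER transgene and floxed alleles of Rptor, and the labels put neither on the WT animals. The promoter of CreER, the dose and timing of any inducer, the age of the mice and whether arrays of a group came from separate animals are not given in the sources used here. The p-values therefore measure the spread between these arrays, which may be technical.

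Rptor encodes Raptor, the scaffold protein that brings substrates to the kinase mTOR in mTOR complex 1 (mTORC1). mTORC1 senses amino acids at the lysosome and growth factor signals through Rheb, and when active it promotes ribosome production, protein and sterol synthesis and holds back autophagy and lysosome production. CMPs and GMPs are steps on the path to granulocytes, monocytes and, for CMPs, red cells and platelets, and M-CSF acts through its receptor Csf1r to promote monocyte and macrophage formation.

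The arrays carried the transcripts of the labelled cells: Kit lay between 8.73 and 11.2 on the log2 scale over the 20 arrays, Mpo between 11.9 and 12.9 and Elane between 11.2 and 12.7. Transcripts of lymphocytes stood higher on the Lin- + MCSF arrays than on the others. The T cell gene Cd3e spanned 7.06 to 8.89 there against 4.62 to 5.17 on CMP arrays and 4.75 to 5.04 on GMP arrays, and the B cell gene Cd79a spanned 6.38 to 7.57, 4.39 to 4.84 and 4.63 to 5.02. Arrays of a group correlated at 0.978 or higher. Values are log2 signals and changes are CreER-Raptor minus WT in log2 units, given ± limma's standard error (SE). In such bulk samples, fewer cells of a type and less RNA per cell cannot be told apart.

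On the mean of the 3 populations, 3858 genes (23.2% of those tested) were called at a Benjamini-Hochberg adjusted p under 0.05 by limma. Of these, 1930 were higher in CreER-Raptor cells (11.6%) and 1928 lower (11.6%). The 3 differences had the same sign in 3140 called genes (18.9% of those tested), 1605 of them higher and 1535 lower. Agreement in sign by itself was found in 39.2% of all tested genes, called or not. In the other 718 called genes the sign differed between the populations.

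The calls on the mean went beyond those made within each population. Tested alone, the genotype effect was called for 1905 genes in CMPs (11.4%), 1980 in GMPs (11.9%) and 2088 in Lin- + MCSF cells (12.5%). The CMP count was 1229 without CreER-Raptor CMP replicate 2, and the GMP count was 1256 without CreER-Raptor GMP replicate 2 and 1183 without WT GMP replicate 2. Of the 3140 genes of 1 sign, 313 were also called in each of the 3 populations alone, 711 in 2 of them, 1332 in 1 and 784 in none. The median size of the mean change was 0.25 for the 784 genes and 0.78 for the 313. Conversely, 1204 genes called in at least 1 population were not called on the mean. The mean change was at least 2-fold for 161 genes of 1 sign, 71 higher and 90 lower, and the smallest of the 3 differences was itself at least 2-fold for 23 genes that were higher and 28 that were lower.

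**Figure D1:**
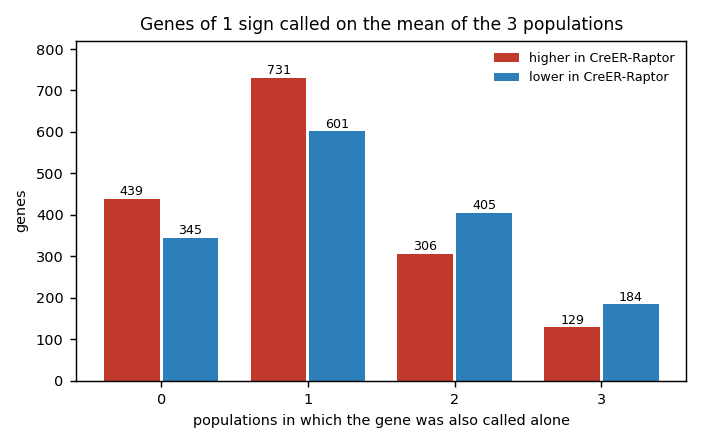
Genes called on the mean of the 3 populations with 1 sign, by the number of populations (horizontal axis) in which the gene was also called alone; bars count genes higher or lower in CreER-Raptor cells. The tallest bars are at 1 population (731 higher and 601 lower), and 129 higher and 184 lower genes were called in all 3.

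The size of the genotype effect was not always shared. A limma F test of the difference of the genotype effect between the populations called 1551 genes (9.32% of those tested), among them 475 of the 3140 genes of 1 sign. In 547 genes the CreER-Raptor and WT arrays were fully apart, in 1 direction, in each of the 3 populations (3.29% of those tested), with 243 higher and 304 lower, and 541 of these were called on the mean. At the threshold, the last gene called was Mc2r (0.21 ± 0.08, limma adjusted p = 0.0499) and the first not called was Fam71f2 (0.19 ± 0.07, limma adjusted p = 0.0501).

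The targeted gene was lower on the mean of the 3 populations by a small amount. Rptor read 8.20, 8.37 and 8.45 on CreER-Raptor CMP arrays against 8.72, 8.51 and 8.68 on WT CMP arrays. On GMP arrays it was 9.25, 9.24 and 8.85 for CreER-Raptor against 9.25, 9.17 and 9.44 for WT. Lin- + MCSF cells had 6.92, 6.98, 7.06 and 6.83 for CreER-Raptor against 7.05, 6.95, 7.34 and 7.17 for WT. The genotypes did not overlap in CMPs and overlapped in GMPs and in Lin- + MCSF cells. Over the 3 populations the mean change was -0.22 ± 0.07 (limma adjusted p = 0.0269), with -0.29, -0.17 and -0.18 in the 3 populations, none of them called alone (limma adjusted p = 0.163, 0.465 and 0.305). Exchanging genotypes within each population gave p = 0.00457 for the mean by an exact permutation test (two-sided) over 28000 arrangements, where the smallest possible value is 7.14e-05. The call was lost with cyclic loess (limma adjusted p = 0.0510) and without any of 5 arrays (CreER-Raptor CMP replicate 1, WT CMP replicates 1 and 3, CreER-Raptor GMP replicate 3 and WT GMP replicate 3), where limma adjusted p was 0.0528 to 0.0655. Rptor had 1 probe set, and where it lies with respect to the floxed segment was not analysed here. Of the 60 tested genes nearest to Rptor on chromosome 11 (30 on each side), 19 were called (31.7%), 14 higher and 5 lower, against 23.2% of all tested genes (1930 higher and 1928 lower).

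Most other parts of the mTOR complexes did not pass the test. The kinase gene Mtor differed by 0.00 ± 0.05 (limma adjusted p = 0.988) and Rictor, the scaffold of mTORC2, by 0.15 ± 0.08 (limma adjusted p = 0.182). Of 37 tested genes of the complexes and their regulators, 7 were higher (18.9%) and 7 lower (18.9%). Both shares were above the 11.6% in each direction over all tested genes. The median change was 0.01, which is also the median over all tested genes. Among the called members, 11 had the same sign in all populations. The higher ones were Rag GTPase genes and the folliculin group that acts on them: Fnip2 changed by 0.84 ± 0.09, Flcn by 0.40 ± 0.06, Rragd by 0.37, Rragb by 0.33, Fnip1 by 0.29 and Rragc by 0.27, beside Eif4ebp1, an mTORC1 substrate (0.24). Among the lower ones were the sestrin genes, whose proteins restrain mTORC1 under stress or amino acid shortage: Sesn1 changed by -0.53 ± 0.07, Sesn2 by -0.51 ± 0.09 and Sesn3 by -0.40. Fnip2 rose mainly in the sorted cells (1.31, 1.09 and 0.11 in CMPs, GMPs and Lin- + MCSF cells), and the difference between populations was called (limma adjusted p = 7.50e-04).

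The genes with the largest change shared by all 3 populations in the upward direction included genes for surface, secreted and metal- or lipid-binding proteins. They were, in order of their smallest difference, Anpep, C4b, Mt2, Saa3, Fabp4, Rhag, Ces2g, Car2, Stfa1, Xrcc5, Il1r1 and Gadd45g. Anpep encodes the myeloid surface peptidase CD13. The signal was 7.03, 7.11 and 7.56 in CreER-Raptor CMPs against 5.07, 5.25 and 5.27 in WT CMPs. GMPs had 7.49, 7.78 and 7.25 for CreER-Raptor against 5.38, 5.24 and 5.30 for WT. In Lin- + MCSF cells it was 8.47, 8.74, 8.96 and 9.15 for CreER-Raptor against 6.56, 6.27, 6.30 and 6.62 for WT. All CreER-Raptor arrays lay above all WT arrays of the same population, and the 3 changes were close to each other. On the mean it changed by 2.21 ± 0.09 (limma adjusted p = 2.75e-13), and no difference between populations was called (limma adjusted p = 0.586).

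C4b encodes a form of complement component C4. CMP arrays gave 6.85, 6.65 and 7.08 for CreER-Raptor against 4.79, 5.07 and 5.59 for WT. In GMPs the values were 8.07, 8.56 and 8.23 for CreER-Raptor against 5.18, 5.4 and 5.54 for WT. The Lin- + MCSF arrays gave 7.25, 7.65, 7.37 and 6.78 for CreER-Raptor against 5.07, 6.27, 4.36 and 6.09 for WT. The genotypes were apart in each population, although WT arrays of the cultures spread widely. The mean change was 2.14 ± 0.19 (limma adjusted p = 2.73e-08). Fabp4, a cytosolic fatty acid binding protein of fat cells and macrophages, spanned 6.67 to 7.76 in CreER-Raptor against 3.96 to 4.93 in WT CMPs, 5.60 to 6.27 in CreER-Raptor against 4.13 to 4.78 in WT GMPs, and 7.52 to 8.36 in CreER-Raptor against 5.35 to 6.86 in WT Lin- + MCSF cells. Its arrays did not overlap in any population, and the mean change was 2.18 ± 0.19 (limma adjusted p = 1.88e-08). Saa3, an acute phase serum amyloid gene, changed by 1.82 ± 0.22 on the mean and by 2.07, 1.87 and 1.5 in CMPs, GMPs and Lin- + MCSF cells.

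The remaining genes at the top had changes of 1.23 or more in each population. Xrcc5, whose product Ku80 binds broken DNA ends, changed by 1.62, 1.76 and 1.29 in CMPs, GMPs and Lin- + MCSF cells, and its mean change was 1.56 ± 0.10 (limma adjusted p = 3.47e-10). Il1r1, the signalling receptor for interleukin-1, changed by 1.43 ± 0.14 and Gadd45g, a stress-inducible growth arrest gene, by 1.46 ± 0.14 on the mean. Ces2g, a carboxylesterase gene, changed by 1.88 ± 0.15, and Stfa1, of the stefin family of cysteine protease inhibitors, by 1.53 ± 0.24. Stfa1 was not called in CMPs alone (limma adjusted p = 0.0619), and 1 of its WT Lin- + MCSF arrays read 10.66 beside 8.15 to 8.86 on the other WT arrays of that group.

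By mean change alone, Gpnmb led the rises, and Il1r2, Cd33 and Cntnap1 were among the 8 largest beside Anpep, Fabp4, C4b and Mt2. Gpnmb encodes a transmembrane glycoprotein of lysosomes and melanosomes. It read 8.84, 8.60 and 9.09 on CreER-Raptor CMP arrays against 4.72, 4.72 and 4.11 on WT CMP arrays. On GMP arrays it was 8.82, 8.90 and 8.91 for CreER-Raptor against 4.48, 5.22 and 4.46 for WT. Lin- + MCSF cells had 10.76, 10.90, 10.83 and 10.95 for CreER-Raptor against 10.35, 10.29, 10.38 and 10.62 for WT. In CMPs and GMPs the CreER-Raptor arrays were far above the WT arrays, while in the cultures both genotypes were high. Over the 3 populations the mean change was 2.98 ± 0.10 (limma adjusted p = 9.79e-15) and the changes were 4.33, 4.16 and 0.45, a difference between populations that was called (limma adjusted p = 4.22e-10). Il1r2, the decoy receptor for interleukin-1, changed by 2.09 ± 0.19 on the mean and most in GMPs (3.67). Cd33, a sialic acid binding receptor of myeloid cells, changed by 1.92 ± 0.18 (1.97, 2.86 and 0.94 in CMPs, GMPs and Lin- + MCSF cells). This difference between populations was called (limma adjusted p = 0.0133). In the cultures the genotypes overlapped: WT replicate 3 read 11.01 beside 9.16 to 9.51 on the other WT arrays and 10.46 to 10.90 for CreER-Raptor. Cntnap1, a membrane protein of the contactin-associated family, changed by 1.89 ± 0.11.

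**Figure D2:**
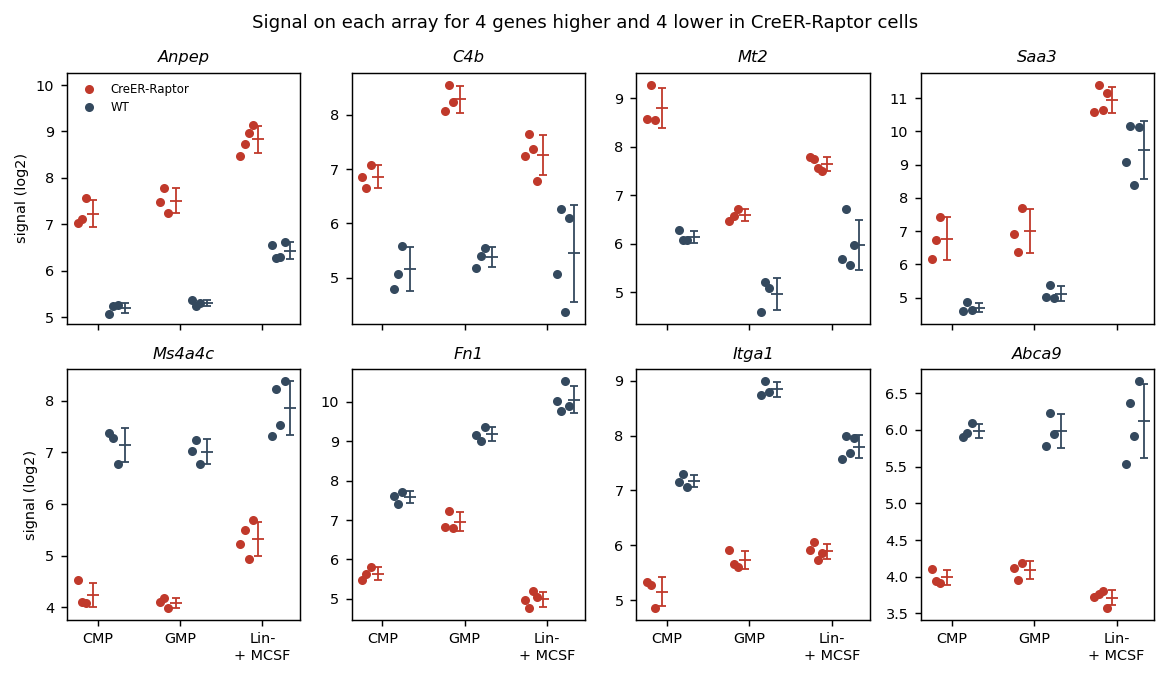
Log2 signal on each array (points) for 4 genes higher and 4 lower in CreER-Raptor cells, by population, with CreER-Raptor left of WT; the bar beside the points is the mean with its SD (n = 3, 3 and 4 arrays). The 2 genotypes do not overlap in any population for these 8 genes.

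In the downward direction, the genes with the largest shared change were Ms4a4c, Fn1, Itga1, Abca9, Epx, Mmp9, Ms4a6c, Fkbp1b, Ifi209, Csf1r, Ly6a2 and Nrp1, in order of their smallest difference. Several belong to monocytes and macrophages. Ms4a4c encodes a 4-transmembrane protein of the Ms4a family. The signal was 4.52, 4.10 and 4.09 in CreER-Raptor CMPs against 7.38, 7.28 and 6.77 in WT CMPs. GMPs had 4.11, 4.17 and 3.98 for CreER-Raptor against 7.02, 7.25 and 6.78 for WT. In Lin- + MCSF cells it was 5.22, 5.49, 4.93 and 5.69 for CreER-Raptor against 7.32, 8.22, 7.53 and 8.39 for WT. CreER-Raptor arrays were below WT arrays throughout, by a like amount in each population. In CMPs and GMPs they lay near 3.86, the mean signal that tested genes had to reach, so the falls there may be understated. On the mean Ms4a4c changed by -2.79 ± 0.13 (limma adjusted p = 2.08e-12), and its relative Ms4a6c changed by -1.62 ± 0.07.

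Fn1 encodes fibronectin, a matrix protein that monocytes and macrophages make. CMP arrays gave 5.48, 5.63 and 5.80 for CreER-Raptor against 7.62, 7.42 and 7.72 for WT. In GMPs the values were 6.82, 7.24 and 6.81 for CreER-Raptor against 9.17, 9.01 and 9.36 for WT. The Lin- + MCSF arrays gave 4.96, 4.76, 5.2 and 5.04 for CreER-Raptor against 10.03, 9.77, 10.54 and 9.91 for WT. It was lower in CreER-Raptor cells everywhere and by the most in the cultures. The mean change was -3.08 ± 0.09 (limma adjusted p = 4.25e-15), with -1.95, -2.22 and -5.07 in CMPs, GMPs and Lin- + MCSF cells and a called difference between populations (limma adjusted p = 5.54e-09).

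Itga1, the collagen-binding integrin alpha 1 chain, spanned 4.85 to 5.33 in CreER-Raptor against 7.07 to 7.29 in WT CMPs, 5.60 to 5.92 in CreER-Raptor against 8.74 to 9.0 in WT GMPs, and 5.73 to 6.05 in CreER-Raptor against 7.57 to 7.99 in WT Lin- + MCSF cells. The genotypes were apart in every population and the mean change was -2.35 ± 0.08 (limma adjusted p = 9.79e-15). Abca9, a transporter gene of the ATP-binding cassette family, changed by -2.10 ± 0.11 (limma adjusted p = 5.93e-12). Its CreER-Raptor arrays lay between 3.57 and 4.19, near the floor of 3.86 that tested genes had to reach on average. Nrp1, a coreceptor for semaphorins and vascular growth factors, changed by -1.73 ± 0.09, Ly6a2, of the Ly6 surface protein family, by -2.0 ± 0.07, and Fkbp1b, an FK506 binding protein gene, by -1.69 ± 0.12. All 3 had arrays that did not overlap between the genotypes in any population.

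**Figure D3:**
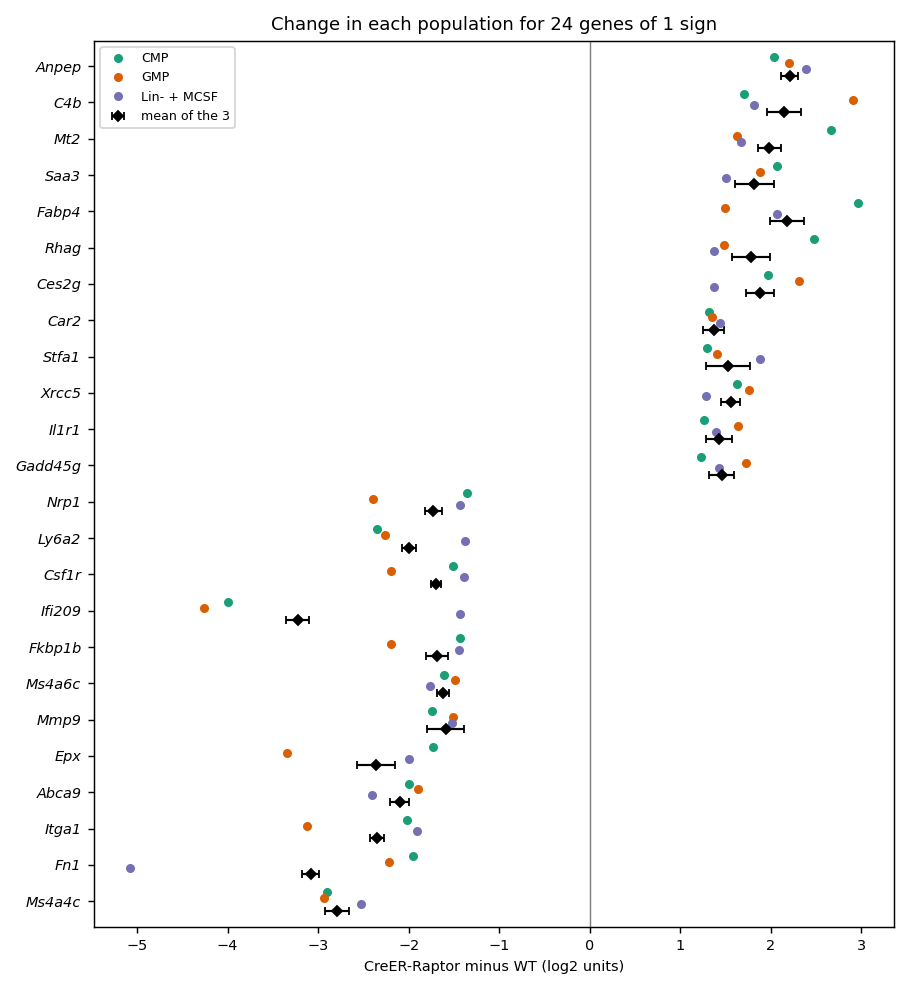
CreER-Raptor minus WT change (log2 units, horizontal axis) in CMPs, GMPs and Lin- + MCSF cells (circles) and on the mean of the 3 (diamonds, with the SE of the limma fit) for the 12 genes in each direction with the largest change in all 3 populations. The 3 circles of Car2 nearly coincide, whereas those of Fn1 and Ifi209 are far apart.

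The monocyte and macrophage genes were lower as a group. Of 29 tested, 19 were called lower (65.5%) and 2 higher (6.90%), with a median change of -0.57. The median was -0.58 in CMPs, -0.24 in GMPs and -0.67 in Lin- + MCSF cells. Among the called members, 18 had the same sign in the 3 populations. The size of the change was often not shared: a difference between populations was called for 18 of the 29. Csf1r, the M-CSF receptor, was among the lower genes. It read 7.49, 7.06 and 7.43 on CreER-Raptor CMP arrays against 8.87, 8.86 and 8.78 on WT CMP arrays. On GMP arrays it was 7.36, 7.32 and 7.15 for CreER-Raptor against 9.51, 9.5 and 9.42 for WT. Lin- + MCSF cells had 8.61, 8.46, 8.55 and 8.46 for CreER-Raptor against 9.78, 9.93, 9.98 and 9.95 for WT. Every CreER-Raptor array was below every WT array of its population by more than 1 log2 unit. Over the 3 populations the mean change was -1.70 ± 0.06 (limma adjusted p = 1.72e-14), with a larger fall in GMPs (-1.51, -2.20 and -1.39; difference between populations, limma adjusted p = 0.00154).

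Transcription factors of monocyte formation fell with it. Irf8, which directs monocyte and dendritic cell formation, spanned 7.64 to 8.06 in CreER-Raptor against 9.49 to 9.83 in WT CMPs, 6.97 to 7.88 in CreER-Raptor against 10.15 to 10.28 in WT GMPs, and 8.66 to 9.18 in CreER-Raptor against 9.30 to 9.56 in WT Lin- + MCSF cells. The genotypes did not overlap, but the gap was narrow in the cultures. Its mean change was -1.73 ± 0.10 (limma adjusted p = 4.60e-11). Klf4, a factor of monocyte differentiation, changed by -1.62 ± 0.09 and Spi1, which encodes the myeloid factor PU.1, by -0.33 ± 0.06 (limma adjusted p = 7.40e-04), with Spi1 called alone in CMPs. Clec7a, the beta-glucan receptor Dectin-1, changed by -1.78 ± 0.06, and Cx3cr1, the fractalkine receptor, by -1.41. The 2 genes of the list that rose were Cd300lf (0.88) and the mannose receptor gene Mrc1 (0.61), and the tested members not called included Cd14, Cd68 and Cybb.

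Averaged over the list on each array, the monocyte genes spanned 6.90 to 7.14 in CreER-Raptor CMPs against 7.62 to 7.67 in WT CMPs, 7.38 to 7.44 in CreER-Raptor GMPs against 8.07 to 8.10 in WT GMPs, and 8.02 to 8.16 in CreER-Raptor against 8.93 to 9.27 in WT Lin- + MCSF cells. The level was thus lower on every CreER-Raptor array. Within 250 bases before and 50 after the start, the PU.1 element GAGGAAG stood on either strand in 9 of 22 promoters of the list (40.9%), against 13.5% of the promoters of 12921 tested genes. Among called genes of 1 sign it was found in 16.0% of those that were lower and 13.7% of those that were higher.

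Some granule genes were lower. Of 18 secondary granule and mature neutrophil genes, 8 were lower (44.4%) and 2 higher (11.1%), with a median change of -0.34. Ltf, which encodes lactoferrin, changed by -2.56 ± 0.15, and Camp, the precursor of the cathelicidin peptide, by -2.35 ± 0.12. Both fell in CMPs and GMPs but were not called in the cultures, where Ltf changed by -0.38 (limma adjusted p = 0.330) and Camp by -0.38 (limma adjusted p = 0.216). Mmp9, a gelatinase of tertiary granules, was lower in each population: the mean change was -1.59 ± 0.20 (limma adjusted p = 4.14e-06), and the differences were -1.75, -1.51 and -1.52. In the cultures WT replicate 3 stood above the other WT arrays for these genes, with 10.25 beside 7.95 to 8.45 for Mmp9, 12.01 beside 10.37 to 10.74 for Ltf and 11.91 beside 11.21 to 11.48 for Camp. Without it the culture change was -1.0 for Mmp9, -0.03 for Ltf and -0.24 for Camp, and the mean change was -1.42, -2.44 and -2.31. The whole secondary granule list spanned 9.28 to 9.75 in CreER-Raptor against 9.43 to 10.78 in WT Lin- + MCSF cells. Ngp, a granule protein gene, changed by -1.05 ± 0.07, whereas the chitinase-like Chil3 rose by 1.04 and Lcn2, a siderophore-binding protein, by 0.46.

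Among 15 genes of primary granules and of granulocyte progenitors, 5 fell (33.3%) and 1 rose (6.67%), with a median of -0.07, and the 3 differences had the same sign in 1 gene. That gene was Clec12a, an inhibitory lectin receptor, with a mean change of -0.97 ± 0.06 and differences of -1.94, -0.80 and -0.17. Mpo, Elane, Prtn3 and Ctsg, which encode the main azurophil granule proteins, changed by -0.05, -0.05, -0.07 and 0.04 and were not called. The granulocyte factor Cebpe changed by -0.48 ± 0.10 on the mean, made up of -1.76 in CMPs, -0.04 in GMPs and 0.35 in Lin- + MCSF cells. Gfi1, a transcriptional repressor needed for granulocyte formation, was called on the mean (0.35 ± 0.11, limma adjusted p = 0.0266) with -0.20 in CMPs, and the call was lost without WT CMP replicate 1 or 2, WT GMP replicate 1 or 2, or CreER-Raptor GMP replicate 2 (limma adjusted p = 0.0560 to 0.0685). Cebpa was not called (0.13 ± 0.07, limma adjusted p = 0.203).

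The eosinophil genes were lower where called. Of 7 tested, 4 were lower (57.1%), 0 were higher and the median was -0.81. Epx encodes eosinophil peroxidase. The signal was 5.36, 5.73 and 5.45 in CreER-Raptor CMPs against 6.84, 6.80 and 8.11 in WT CMPs. GMPs had 6.92, 7.14 and 6.58 for CreER-Raptor against 10.04, 9.78 and 10.85 for WT. In Lin- + MCSF cells it was 6.26, 6.32, 6.45 and 5.96 for CreER-Raptor against 7.85, 9.18, 7.21 and 8.75 for WT. The genotypes were apart in each population, most widely in GMPs. Its mean change was -2.36 ± 0.21 (limma adjusted p = 4.32e-08), and the mean changes of the granule protein genes Ear6, Prg2 and Prg3 were -1.16 ± 0.21, -0.81 ± 0.14 and -0.87 ± 0.17.

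Erythroid genes were higher. Of 21 tested, 19 were called higher (90.5%), 0 lower, and the median change was 0.88. The smallest count of higher members without any 1 array was 19. Car2 encodes the red cell enzyme carbonic anhydrase 2. CMP arrays gave 10.51, 10.82 and 10.29 for CreER-Raptor against 9.26, 9.48 and 8.90 for WT. In GMPs the values were 6.25, 7.33 and 6.49 for CreER-Raptor against 5.12, 5.52 and 5.38 for WT. The Lin- + MCSF arrays gave 8.28, 8.49, 8.14 and 8.24 for CreER-Raptor against 6.89, 6.91, 6.62 and 6.98 for WT. The genotypes did not overlap and the changes were nearly equal, although the levels in CMPs were far above those in the other cells. On the mean it changed by 1.37 ± 0.12 (limma adjusted p = 1.51e-08; difference between populations, limma adjusted p = 0.961).

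Red cell membrane genes and erythroid regulators moved with it. Rhag, a membrane ammonia channel of the Rh complex, changed by 1.78 ± 0.21, and the water channel gene Aqp1 by 1.26 ± 0.13. Ank1, the membrane skeleton linker ankyrin, changed by 0.96 ± 0.11 and Tspo2 by 1.18 ± 0.13, both with larger rises in CMPs. The erythroid factors Klf1 and Gata1 rose by 0.88 and 0.51 and the erythropoietin receptor gene Epor by 0.83. The 2 members not called were Tmod1 (0.08) and the transferrin receptor gene Tfrc (0.15). The mean level of the list spanned 8.36 to 9.12 in CreER-Raptor CMPs against 7.47 to 7.6 in WT CMPs, 5.7 to 6.46 in CreER-Raptor GMPs against 5.27 to 5.38 in WT GMPs, and 5.91 to 6.61 in CreER-Raptor against 5.19 to 5.47 in WT Lin- + MCSF cells.

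Some stem, mast cell and T and NK lymphocyte genes were also higher. Of 18 stem and multipotent progenitor genes, 9 were higher (50%) and 1 lower (5.56%), with a median of 0.16. The median was -0.14 in CMPs, 0.12 in GMPs and 0.38 in Lin- + MCSF cells. Of those called on the mean, 6 had the same sign in the 3 populations. A difference between populations was called for 10 of the 18. Kit, the stem cell factor receptor, changed by 0.57 ± 0.06 and the factor gene Gata2 by 0.76 ± 0.10, while the progenitor surface gene Cd34 changed by -0.86 ± 0.08, called in CMPs and GMPs alone and not in the cultures. Of 12 mast cell and basophil genes, 5 were higher (41.7%) and 2 lower (16.7%), led by Hpgds, a prostaglandin D synthase (1.0 ± 0.09). Kit and Gata2 are on this list as well as on the stem list. The mast cell list had medians of 0.11 in CMPs, 0.57 in GMPs and -0.01 in Lin- + MCSF cells. Its level in the cultures overlapped between the genotypes (7.97 to 8.17 in CreER-Raptor against 7.74 to 8.32 in WT). Of 16 T and NK lymphocyte genes, 5 were higher (31.3%) and 0 lower, with a median of 0.18. Il7r, the interleukin-7 receptor, rose in each population (1.66, 1.13 and 0.87) and so did the adaptor gene Lat (0.57, 0.69 and 0.74), whereas Cd3d (0.05, 0.03 and 1.11) was called alone in the cultures only.

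These T and NK lymphocyte values stand beside a difference in level of the whole list on the Lin- + MCSF arrays. There the list spanned 6.74 to 7.0 in CreER-Raptor against 6.25 to 6.54 in WT cells. In CMPs the list spanned 5.10 to 5.22 in CreER-Raptor against 5.04 to 5.15 in WT cells, and in GMPs 5.02 to 5.12 in CreER-Raptor against 4.83 to 4.99 in WT cells. Its part in the other results of the cultures was not tested. Erythroid levels were thus higher and monocyte levels lower on all CreER-Raptor arrays. T and NK lymphocyte levels were higher in GMPs and in the cultures and overlapped in CMPs. The B lymphocyte list was lower in CreER-Raptor CMPs (4.96 to 5.12 against 5.34 to 5.43 in WT). It was also lower in CreER-Raptor GMPs (5.06 to 5.16 against 5.28 to 5.41 in WT) and overlapped in the cultures. The share of these levels in the changes of other genes was not tested. Of the other cell type lists, megakaryocyte genes had 5 higher (35.7%) and 1 lower (7.14%) of 14. Dendritic cell and class II genes had 6 higher (37.5%) and 1 lower (6.25%) of 16. B lymphocyte genes had 1 higher (9.09%) and 2 lower (18.2%) of 11. The 2 lower ones were Ighm (-1.29 ± 0.17, with 0.18 in the cultures) and Cd79b (-0.51 ± 0.07). Endothelial and stromal genes had 1 higher (8.33%) and 1 lower (8.33%) of 12. Over all tested genes, 11.6% were higher and 11.6% lower.

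Most interferon-stimulated genes fell. Of 26 tested, 21 were called lower (80.8%), all with the same sign in the 3 populations, and 0 were called higher, with a median of -0.40. The members not called were Oas2, Parp9, Ifit3, Ddx58 and Oasl1. Oasl2, of the oligoadenylate synthetase-like group, spanned 5.28 to 5.52 in CreER-Raptor against 6.69 to 7.07 in WT CMPs, 4.82 to 5.44 in CreER-Raptor against 6.56 to 6.72 in WT GMPs, and 6.22 to 6.58 in CreER-Raptor against 7.06 to 7.69 in WT Lin- + MCSF cells. The genotypes were apart in each population, and the mean change was -1.34 ± 0.09 (limma adjusted p = 3.31e-10). Trim30a, a tripartite motif gene, changed by -0.91 ± 0.11, the receptor transporter gene Rtp4 by -0.75 ± 0.08, Parp14, a mono-ADP-ribosyl transferase, by -0.65 ± 0.06 and Isg15, a ubiquitin-like modifier, by -0.75.

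The Ifi200 genes, a cluster whose products sense DNA or regulate transcription, held some of the largest falls. Ifi209 is one of them. It read 5.99, 6.00 and 5.80 on CreER-Raptor CMP arrays against 9.81, 10.06 and 9.88 on WT CMP arrays. On GMP arrays it was 5.97, 5.35 and 5.53 for CreER-Raptor against 9.86, 10.27 and 9.51 for WT. Lin- + MCSF cells had 8.42, 8.10, 7.84 and 8.04 for CreER-Raptor against 9.18, 9.74, 9.11 and 10.08 for WT. CreER-Raptor arrays were low in CMPs and GMPs and less so in the cultures. The mean change was -3.23 ± 0.12 (limma adjusted p = 5.82e-14). Of 6 tested members 4 were lower (66.7%) and 0 higher, with a median of -0.89. Ifi204 changed by -2.26 ± 0.19, most in the cultures (-4.01), Mndal by -1.34 ± 0.10 and the inflammasome sensor gene Aim2 by -0.44 ± 0.09. The CreER-Raptor arrays of Ifi204 lay between 2.77 and 4.03, near or under the floor of 3.86, and WT CMPs at 3.95 to 5.19. Its changes may thus be understated and are hard to compare between populations. Ifi205 and Ifi207 were not called and had opposite signs in sorted cells and cultures.

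Promoters of 2 genes from these lists are shown because they hold the interferon response element (GAAA, any 2 bases, then GAAA), the motif through which interferon-activated factors act. Sequences are from RefSeq, assembly GRCm38.p6, from 250 bases before to 50 after the first listed start, on the strand of the gene, and capitals mark the element on either strand. Trim30a lies at chr7:104465144-104465443 on the minus strand and Mndal at chr1:173880138-173880437 on the minus strand.
Trim30a: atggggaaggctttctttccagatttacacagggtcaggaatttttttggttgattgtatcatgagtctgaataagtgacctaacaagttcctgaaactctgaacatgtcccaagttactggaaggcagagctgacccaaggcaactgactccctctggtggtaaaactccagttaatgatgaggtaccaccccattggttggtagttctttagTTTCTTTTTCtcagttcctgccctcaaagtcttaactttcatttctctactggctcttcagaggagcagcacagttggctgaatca
Mndal: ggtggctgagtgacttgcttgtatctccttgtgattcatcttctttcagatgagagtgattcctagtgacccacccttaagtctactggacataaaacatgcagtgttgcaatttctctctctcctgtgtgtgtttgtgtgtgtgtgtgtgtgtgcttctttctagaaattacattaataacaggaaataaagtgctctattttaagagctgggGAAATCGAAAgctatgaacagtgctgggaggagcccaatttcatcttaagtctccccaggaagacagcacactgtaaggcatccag
The element was found in 11 of 18 promoters of the interferon-stimulated list (61.1%) and 3 of 5 of the Ifi200 list (60.0%), against 3.00% of the promoters of 12921 tested genes. Among called genes of 1 sign it was in 4.49% of the lower and 2.51% of the higher ones. The windows of Oasl2 and Ifi209, with the largest falls, do not hold these letters.

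Most genes of sterol synthesis were lower. Of 19 cholesterol synthesis genes, 16 were called lower (84.2%), each with the same sign in the 3 populations, and 0 higher, with a median of -0.43 (-0.39 in CMPs, -0.52 in GMPs and -0.40 in Lin- + MCSF cells). Sqle, the squalene epoxidase, read 7.02 to 7.86 in CreER-Raptor against 7.78 to 8.19 in WT CMPs, 5.84 to 6.08 in CreER-Raptor against 7.48 to 7.81 in WT GMPs, and 7.37 to 7.79 in CreER-Raptor against 8.24 to 8.55 in WT Lin- + MCSF cells. The genotypes overlapped in CMPs and not in the other populations. Its mean change was -1.0 ± 0.09 (limma adjusted p = 7.17e-08). Fdps, which makes farnesyl diphosphate, changed by -0.79 ± 0.07, Stard4, a sterol carrier, by -0.76 ± 0.07, Cyp51, the lanosterol demethylase, by -0.71 ± 0.08 and Srebf2, the gene of the sterol-sensing factor SREBP2, by -0.40. Dhcr7, Lss and Pmvk were not called. The count stayed at 16 whichever array was left out.

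Fatty acid synthesis genes did not move as a group, with 1 higher (9.09%) and 2 lower (18.2%) of 11 and a median of -0.06. The factor gene Srebf1 (-0.06) and Fasn, the fatty acid synthase (-0.10), were not called. Glycolysis and glucose uptake genes had 3 higher (17.6%) and 4 lower (23.5%) of 17. Respiratory chain and ATP synthase genes had 1 higher (3.1%) and 4 lower (12.5%) of 32. The ATF4, amino acid and one-carbon genes had 5 higher (22.7%) and 4 lower (18.2%) of 22, with 3 higher without WT CMP replicate 2. Immediate early genes had 6 higher (31.6%) and 2 lower (10.5%) of 19. These lists had medians between -0.08 and 0.03. Over all tested genes, 11.6% were higher and 11.6% lower.

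Chaperones of the endoplasmic reticulum were lower. Of 19 genes of the unfolded protein response, 11 were lower (57.9%) and 1 higher, the factor gene Xbp1 (0.29), with a median of -0.24. Among the called members, 9 had the same sign in the 3 populations. Sdf2l1 changed by -0.55 ± 0.08, Creld2 by -0.48 ± 0.07 and Dnajb11, a co-chaperone of BiP, by -0.46 ± 0.07, and Hspa5, the gene of BiP itself, by -0.24. The mean of GMPs and Lin- + MCSF cells alone left 7 lower members. Of 19 cytosolic heat shock genes, 7 were lower (36.8%) and 0 higher, led in size by Hspa1a and Hspa1b. The sign was the same in the 3 populations for 5 of the 7. Hspa1a read 4.02, 3.71 and 3.99 on CreER-Raptor CMP arrays against 4.81, 8.27 and 6.22 on WT CMP arrays, and 3.80, 3.59 and 3.89 on CreER-Raptor GMP arrays against 5.32, 8.60 and 6.81 on WT GMP arrays. The WT arrays differed by more than 3 log2 units among themselves, in the same order of replicate number in CMPs and GMPs. The labels do not say whether same-numbered arrays share animals, so the 2 falls may not be independent. The change in the cultures was 0.00 (limma adjusted p = 0.997).

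Many cell cycle genes were lower. Of 31 G2 and mitosis genes 30 were called lower (96.8%) and 0 higher, with a median of -0.31. The fall was uneven, with a median of -0.05 in CMPs, -0.63 in GMPs and -0.34 in Lin- + MCSF cells, and 20 of the 30 had the same sign in the 3 populations. Kif23, a kinesin of cell division, spanned 8.53 to 8.93 in CreER-Raptor against 9.21 to 9.57 in WT CMPs, 7.51 to 8.08 in CreER-Raptor against 9.01 to 9.38 in WT GMPs, and 8.69 to 8.94 in CreER-Raptor against 9.07 to 9.24 in WT Lin- + MCSF cells. Its arrays did not overlap in any population, and the mean change was -0.77 ± 0.08 (limma adjusted p = 2.42e-07). Aurkb, a mitotic kinase, changed by -0.48 ± 0.06, and the checkpoint gene Bub1b by -0.53 ± 0.08. Ndc80 was not called (-0.08). On the mean of CMPs and Lin- + MCSF cells alone, 10 of the 31 were called lower.

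Of 29 S phase and replication genes, 15 were lower (51.7%) and 1, the licensing factor gene Cdt1 (0.24), was higher, with a median of -0.19. Gins1, of the replicative helicase complex, changed by -0.43 ± 0.06, Pola1, a DNA polymerase subunit, by -0.41 ± 0.08 and Rrm1, of ribonucleotide reductase, by -0.29 ± 0.06. The mean of CMPs and Lin- + MCSF cells alone left 5 lower members. No difference between populations was called for any of the 29 genes.

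Some ribosome genes rose by small amounts. Of 30 cytosolic ribosomal protein genes, 13 were higher (43.3%), all with the same sign in the 3 populations, and 0 lower, with a median of 0.12. Rplp0 changed by 0.56 ± 0.07, Rpl3 by 0.39 ± 0.07 and Rpl32 by 0.37 ± 0.07, and the other 10 called members by 0.13 to 0.28. Of 29 ribosome biogenesis genes, 10 were higher (34.5%) and 0 lower, with a median of 0.13. Polr1b and Polr1c, subunits of RNA polymerase I, changed by 0.45 ± 0.08 and 0.41 ± 0.06, and Myc, a driver of ribosome production, by 0.39 ± 0.08 (0.09, 0.49 and 0.61 in the 3 populations). The ribosomal protein count was 9 to 18 over the other settings of scaling, weighting and filtering and 4 on the mean of CMPs and GMPs alone.

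Metallothioneins, small proteins that bind zinc and other metals, were higher in all populations. Mt2 was 1 of the 12 genes with the largest shared rise. The signal was 8.58, 9.28 and 8.55 in CreER-Raptor CMPs against 6.28, 6.07 and 6.07 in WT CMPs. GMPs had 6.47, 6.57 and 6.72 for CreER-Raptor against 4.59, 5.22 and 5.09 for WT. In Lin- + MCSF cells it was 7.79, 7.75, 7.56 and 7.50 for CreER-Raptor against 5.68, 6.71, 5.57 and 5.97 for WT. The genotypes did not overlap in any population. Over the 3 populations the mean change was 1.98 ± 0.13 (limma adjusted p = 2.29e-10). Mt1 spanned 9.74 to 10.03 in CreER-Raptor against 8.29 to 8.44 in WT CMPs, 9.27 to 9.39 in CreER-Raptor against 8.37 to 8.51 in WT GMPs, and 10.18 to 10.47 in CreER-Raptor against 9.41 to 9.73 in WT Lin- + MCSF cells. Again the genotypes were apart, and the mean change was 1.05 ± 0.06 (limma adjusted p = 3.10e-11), with a larger rise in CMPs (difference between populations, limma adjusted p = 0.00163). Of 14 genes of metallothioneins and zinc handling, 5 were higher (35.7%) and 2 lower (14.3%), with a median of 0.09. Besides the metallothioneins the higher ones were zinc transporter genes: Slc30a4 changed by 0.77 ± 0.14, Slc39a8 by 0.38 and Slc39a14 by 0.33. Mtf1, the metal-responsive factor that drives metallothionein genes, was not called (0.11).

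The promoters of Mt2 and Mt1, which lie side by side on chromosome 8, are shown because both hold several copies of the core of the metal response element, TGCNCNC, to which Mtf1 binds. They are from the same RefSeq table and window as above, capitals mark the core on either strand, and the positions are chr8:94172368-94172667 on the plus strand and chr8:94178839-94179138 on the plus strand.
Mt2: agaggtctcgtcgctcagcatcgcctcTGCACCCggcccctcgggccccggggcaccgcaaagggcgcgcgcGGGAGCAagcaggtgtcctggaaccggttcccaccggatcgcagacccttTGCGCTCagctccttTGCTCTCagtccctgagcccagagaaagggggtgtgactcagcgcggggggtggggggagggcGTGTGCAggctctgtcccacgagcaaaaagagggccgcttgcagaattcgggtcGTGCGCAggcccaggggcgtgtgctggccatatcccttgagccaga
Mt1: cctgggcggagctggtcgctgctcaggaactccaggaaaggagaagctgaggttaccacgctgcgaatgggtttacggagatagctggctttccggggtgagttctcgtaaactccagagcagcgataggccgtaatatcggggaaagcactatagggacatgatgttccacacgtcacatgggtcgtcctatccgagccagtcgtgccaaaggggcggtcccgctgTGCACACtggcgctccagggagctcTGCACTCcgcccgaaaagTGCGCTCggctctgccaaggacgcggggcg
The window of Mt2 holds 6 cores and that of Mt1 holds 3. The core is short and common: it was found in 58.5% of the promoters of 12921 tested genes, in 61.5% of the called genes that were higher and in 59.8% of those that were lower.

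Lysosome and autophagy genes went both ways. Of 35 tested, 10 were higher (28.6%) and 7 lower (20.0%), with a median of 0.01. Besides Gpnmb, the proton pump subunit gene Atp6v0d2 changed by 1.31 ± 0.09, almost wholly from the cultures (0.49, 0.17 and 3.27). Gaa, the acid alpha-glucosidase, rose evenly by 0.58 (0.57, 0.57 and 0.60), and Ctsd, an aspartic protease, by 0.34. Ctsl, a cysteine protease, changed by 0.84 ± 0.08 and was called in CMPs and GMPs alone (1.22, 1.16 and 0.14). Hexa, a hexosaminidase subunit, changed by -0.57 ± 0.06, with a fall in CMPs and GMPs and not in the cultures (-0.88, -0.85 and 0.02). The ceramidase gene Asah1 changed by -0.41. Of the factors that drive lysosome genes, Tfeb (-0.08) and Tfe3 (-0.11) were not called and Mitf was lower (-0.59).

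The E-box CACGTG is the site to which factors of that family bind, and it stood in 8 of 29 promoters of the lysosome list (27.6%), against 9.29% of the promoters of 12921 tested genes. It was in 12.6% of the called genes of 1 sign that were higher and 8.73% of those that were lower. The promoter of Ctsl is shown as an example with 1 E-box, in capitals, at chr13:64370471-64370770 on the minus strand.
Ctsl: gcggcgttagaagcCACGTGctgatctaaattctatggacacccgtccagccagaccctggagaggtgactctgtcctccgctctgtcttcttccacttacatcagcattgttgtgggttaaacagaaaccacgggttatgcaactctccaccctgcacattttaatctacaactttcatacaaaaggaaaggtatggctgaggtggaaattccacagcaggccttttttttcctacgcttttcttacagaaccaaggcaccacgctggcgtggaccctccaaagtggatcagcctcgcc
The window of Gpnmb does not hold these letters.

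Genes of the FoxO and PI3K feedback list also split, with 4 higher (19%) and 4 lower (19%) of 21 and a median of 0.09. The higher ones encode the insulin receptor substrate Irs2 (1.38 ± 0.08), the glucose uptake inhibitor Txnip (0.77 ± 0.07), the receptor adaptor Grb10 (0.67 ± 0.09) and the ubiquitin ligase subunit Fbxo32 (0.36). Irs2 and Txnip were called alone in CMPs and GMPs and not in the cultures, whereas Grb10 was called in each population. The lower ones were Sesn1, Sesn3, Cdkn2c (-0.50) and Ccng2 (-0.40).

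**Figure D4:**
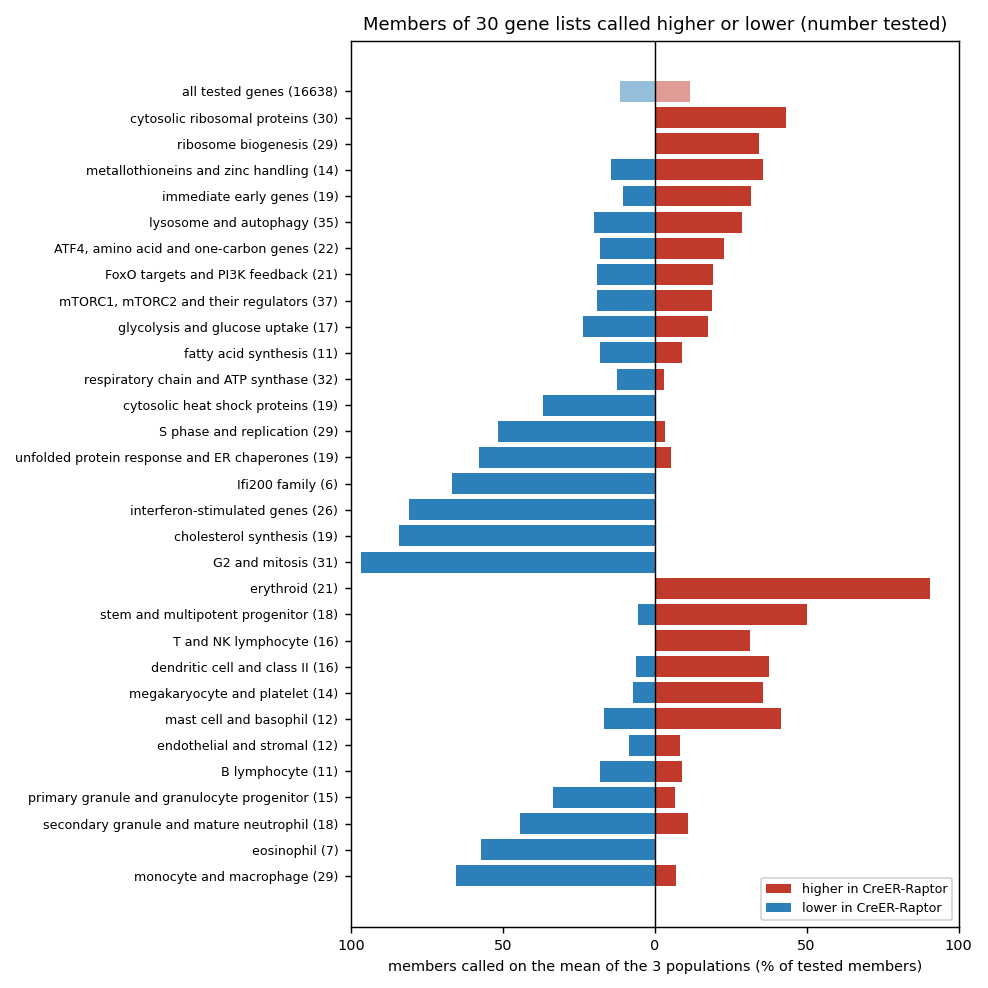
Share of tested members called higher (right) or lower (left) in CreER-Raptor cells on the mean of the 3 populations, for all tested genes and for 30 gene lists (vertical axis, number tested in brackets); the horizontal axis is in percent. All tested genes had 11.6% in each direction, the erythroid list 90.5% higher and the G2 and mitosis list 96.8% lower.

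Pooling the populations brought calls that no population gave alone. The 784 genes of 1 sign called in none of the 3 included, with the smallest p in each direction, Hddc2, Dvl1, Rlim, Kri1 and Gnptg among the higher and Tm2d2, Gsap, Anapc11, Map7d1 and Zfp287 among the lower. Dvl1, a Wnt signal transducer, spanned 7.21 to 7.51 in CreER-Raptor against 6.87 to 7.02 in WT CMPs, 7.54 to 7.98 in CreER-Raptor against 7.20 to 7.43 in WT GMPs, and 6.19 to 6.63 in CreER-Raptor against 5.68 to 6.30 in WT Lin- + MCSF cells. The genotypes overlapped only in the cultures, and the mean change was 0.41 ± 0.08 (limma adjusted p = 6.89e-04), with limma adjusted p between 0.0550 and 0.0749 in the populations. Anapc11, a subunit of the anaphase-promoting complex, spanned 7.10 to 7.49 in CreER-Raptor against 7.47 to 7.66 in WT CMPs, 7.06 to 7.21 in CreER-Raptor against 7.41 to 7.49 in WT GMPs, and 6.98 to 7.22 in CreER-Raptor against 7.19 to 7.46 in WT Lin- + MCSF cells, and changed by -0.28 ± 0.06 (limma adjusted p = 0.00139). It overlapped between the genotypes in CMPs and in the cultures.

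Gsap, the gamma-secretase activating protein gene, changed by -0.60 ± 0.13 (limma adjusted p = 0.00117), the largest mean change of the 10. The E3 ligase gene Rlim changed by 0.29 ± 0.06, Gnptg, which helps tag lysosomal enzymes, by 0.31 ± 0.07 and Kri1, of small ribosomal subunit assembly, by 0.35 ± 0.08. Hddc2 changed by 0.39 ± 0.08, Tm2d2 by -0.32 ± 0.06, Map7d1 by -0.33 ± 0.07 and Zfp287 by -0.35 ± 0.08. For none of the 10 was a difference between populations called (limma adjusted p of 0.886 or higher). The genes were picked for a small p on the mean, 1 sign and no call in any population alone. That choice favours like changes, so the test says nothing further about how even they are.

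**Figure D5:**
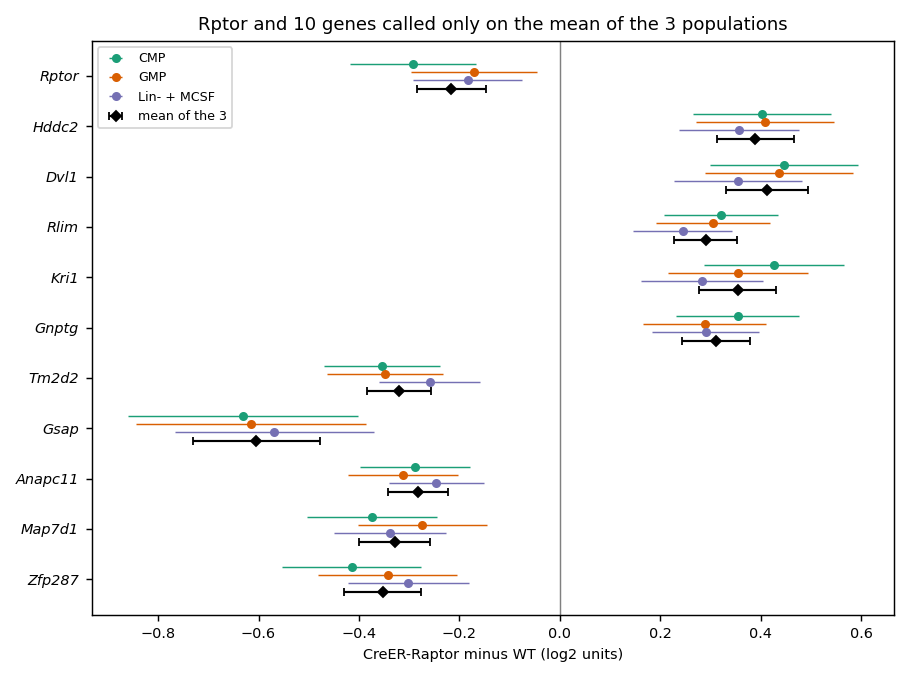
CreER-Raptor minus WT change (log2 units, horizontal axis) for Rptor and 10 genes called on the mean of the 3 populations but in none alone, with the SE of the limma fit; circles are the populations and diamonds the mean. The SE of the mean is narrower than that of each population, and for each gene the 3 changes have 1 sign.

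Where the sign differed between the populations, a called gene had no shared direction. The largest of these were Ccl22, Apol11b, Cyp11a1 and Ccr1 on the higher side and Msr1, Clec4a1, Fcgr1 and Hspa1a on the lower. Clec4a1, a C-type lectin receptor, spanned 4.05 to 4.17 in CreER-Raptor against 3.77 to 4.10 in WT CMPs, 3.97 to 3.98 in CreER-Raptor against 3.87 to 4.07 in WT GMPs, and 4.15 to 4.32 in CreER-Raptor against 8.44 to 8.70 in WT Lin- + MCSF cells. It was low in all cells but WT Lin- + MCSF cells, and its mean change of -1.37 ± 0.06 came from the cultures alone (-4.34). Msr1, a macrophage scavenger receptor, and Fcgr1, a high-affinity receptor for IgG, were likewise called in the cultures alone, with changes of 0.18, 0.11 and -4.56 and of 0.01, -0.30 and -3.62 in CMPs, GMPs and Lin- + MCSF cells. The chemokine gene Ccl22 rose in the cultures (2.89) and was not called in CMPs (-0.02) or GMPs (0.21), and Apol11b changed by 1.32, -0.05 and 1.74. The chemokine receptor gene Ccr1 and the steroid enzyme gene Cyp11a1 rose in CMPs and GMPs and not in the cultures: Ccr1 changed by 1.56, 1.68 and -0.31 and Cyp11a1 by 1.24, 1.76 and -0.03. For all 8 genes the difference between populations was called, with limma adjusted p of 0.0289 for Hspa1a and 0.00846 or lower for the others.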

How the data were processed

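RNA of 20 samples (1-5 ng each, per the labels) was amplified, biotin-labelled and hybridised to 1-colour mouse arrays. The values used are the authors' deposited log2 signals of 41345 probe sets; RMA, limma and Partek 6.6 are named per the submitters' processing notes, without their roles, and arrays had medians of 4.76 to 4.91. Platform annotation gave 1 gene to 23521 probe sets, several to 1814 and none to 16010, and 23328 of the first were found in the RefSeq table. Of 22180 genes, 1082 had several probe sets, and the one of highest mean was kept. Genes under the 25th percentile of mean signal (3.86) were left out.

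No values were normalised again. In R 4.3.3, limma 3.58.1 (functions lmFit, contrasts.fit and eBayes) fitted a model of 6 group means with 14 residual degrees of freedom, and p-values were adjusted by Benjamini-Hochberg over all 16638 tested genes, with calls under 0.05. The script was tested on simulated data. The members, the 30 gene lists (18 pathway and 12 cell type lists, 595 genes tested) and the tests were chosen with earlier results of these data known. Named genes (predicted genes, clone names, receptor gene segments, small RNAs and olfactory receptors left out) are, in each direction, the 12 with the largest smallest change, the 8 with the largest mean change, the 5 with the smallest p called in no population alone and the 4 largest with differing signs, up to 4 per list by smallest p, Rptor and 14 other genes of interest, and the further members named to describe a list, which were chosen after their values were seen. Promoters were matched by symbol for 12921 tested genes and 5 motifs were searched on both strands with Python 3.11.15. Other filters, weights, scalings, models, blocks and left-out arrays were tried.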

Additional observations from a re-analysis of the deposited data

Results flagged for a closer look

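By the limma F test across all tested genes, the genotype effect differed between the populations for 49 of 113 genes. These 113 were the genes named here with values on each array. Over all tested genes the share was 9.32% (1551 of 16638). The 113 genes were chosen partly for large changes or differing signs in these data, so the 2 shares cannot be compared. The values below are the largest minus the smallest of the 3 changes in log2 units, each gene placed by the population with its largest change in size. Largest in CMPs among genes lower on the mean in CreER-Raptor cells were 8 genes, with differences of 3.39 for Ltf, 3.32 for Camp, 2.11 for Cebpe, 1.77 for Clec12a and 1.76 for Ngp. The next had 0.97 for Ly6a2, 0.90 for Hexa and 0.86 for Fdps. Largest in CMPs among genes higher on the mean in CreER-Raptor cells were 8 genes, with differences of 3.88 for Gpnmb, 1.87 for Tspo2, 1.75 for Irs2, 1.2 for Fnip2 and 1.18 for Ank1. The next had 1.08 for Ctsl, 0.80 for Mt1 and 0.78 for Txnip. Largest in GMPs among genes lower on the mean in CreER-Raptor cells were 15 genes, with differences of 3.16 for Hspa1a, 2.83 for Ifi209, 2.21 for Irf8, 1.73 for Clec7a and 1.66 for Mndal. The next had 1.49 for Klf4, 1.24 for Cd34, 1.21 for Itga1, 1.16 for Sqle and 1.04 for Kif23. Further ones had 1.03 for Nrp1, 0.80 for Csf1r, 0.63 for Parp14, 0.62 for Sesn1 and 0.60 for Aurkb. Largest in GMPs among genes higher on the mean in CreER-Raptor cells were 7 genes, with differences of 3.06 for Il1r2, 1.99 for Ccr1, 1.91 for Cd33, 1.80 for Cyp11a1 and 1.66 for Cntnap1. The next had 1.34 for Chil3 and 0.56 for Rpl3. Largest in Lin- + MCSF cells among genes lower on the mean in CreER-Raptor cells were 6 genes, with differences of 4.74 for Msr1, 4.56 for Clec4a1, 3.63 for Fcgr1, 3.12 for Fn1 and 2.89 for Ifi204. The next had 0.82 for Cyp51. Largest in Lin- + MCSF cells among genes higher on the mean in CreER-Raptor cells were 5 genes, with differences of 3.11 for Atp6v0d2, 2.92 for Ccl22, 1.79 for Apol11b, 1.08 for Cd3d and 0.70 for Kit.

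In 10 of 226 groups of 4 Lin- + MCSF arrays, 1 array stood apart from the other arrays of its group by Dixon's test, which chance alone flags in about 1 of 20 groups. Ccl22 read 5.85 on WT Lin- + MCSF replicate 1, beside 5.04 to 5.10 on the others. Cyp11a1 read 7.83 on CreER-Raptor Lin- + MCSF replicate 2, beside 7.41 to 7.48 on the others. Fdps read 9.92 on WT Lin- + MCSF replicate 2, beside 9.51 to 9.56 on the others. Gsap read 8.75 on WT Lin- + MCSF replicate 3, beside 7.75 to 7.84 on the others. Hspa1a read 3.89 on CreER-Raptor Lin- + MCSF replicate 3, beside 4.41 to 4.44 on the others. Il1r2 read 5.48 on WT Lin- + MCSF replicate 4, beside 6.28 to 6.38 on the others. Il7r read 8.89 on WT Lin- + MCSF replicate 3, beside 9.19 to 9.23 on the others. Kri1 read 8.03 on CreER-Raptor Lin- + MCSF replicate 3, beside 8.26 to 8.29 on the others. Rpl32 read 12.71 on CreER-Raptor Lin- + MCSF replicate 4, beside 12.85 to 12.87 on the others. Tm2d2 read 7.57 on WT Lin- + MCSF replicate 2, beside 7.20 to 7.26 on the others.

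Probe sets without a single named gene took no part in the comparisons above. Tested the same way on the mean of the 3 populations, 618 of 11555 were called by limma (5.35%), 303 higher and 315 lower in CreER-Raptor cells.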

How the results depend on the processing

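The mean over the populations was recomputed under 16 other settings and without each of the 20 arrays. Without 1 array, 3422 to 3945 genes were called on the mean (3363 to 3682 of them among the 3858), 1654 to 1994 higher and 1682 to 2005 lower, and 2827 to 3216 with 1 sign. The difference between populations was then called for 1191 to 1699 genes, and the effect within a population for 1229 to 2087 in CMPs, 1183 to 2157 in GMPs and 1634 to 2152 in Lin- + MCSF cells. Genes of 1 sign called in each population alone numbered 243 to 309 and genes with no overlap 563 to 682. Rptor changed by -0.24 to -0.17 (limma adjusted p = 0.0170 to 0.0655). It was not called with cyclic loess (-0.20), on the mean of CMPs and GMPs (-0.23), of CMPs and Lin- + MCSF cells (-0.24) or of GMPs and Lin- + MCSF cells (-0.18), or where a change of 1.5-fold was also required (-0.22). That last rule left 616 genes called, 277 higher and 339 lower, 551 of them with 1 sign. The mean of CMPs and Lin- + MCSF cells alone gave 1248 lower genes. Weights estimated per array gave 3024 genes for the difference between populations, 3048 in CMPs, 5328 in GMPs and 1316 in Lin- + MCSF cells, and weights by population gave 1138 in Lin- + MCSF cells. On the mean of CMPs and GMPs, Clec4a1 (0.12) and Msr1 (0.15) had the opposite sign, as did Cebpe (0.16) on the mean of GMPs and Lin- + MCSF cells; none of these was called. The cause of these shifts was not tested, apart from the smaller number of arrays or the stricter rule where a setting brings one.

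Between the genotypes the replicate numbers did not meet the limit for pairing: same-numbered CreER-Raptor and WT arrays had correlations of their deviations from the group means of -0.17 to 0.12 in CMPs, -0.34 to -0.03 in GMPs and -0.09 to 0.06 in Lin- + MCSF cells. Within a genotype, same-numbered CMP and GMP arrays correlated at 0.05 to 0.18 for CreER-Raptor (2 of 3 over 0.1, each array highest with its own number) and 0.01 to 0.09 for WT, and the labels do not say whether they share animals. With those arrays as a random replicate block, 3712 genes were called on the mean. With the number as a fixed replicate block, 3891 genes were called on the mean, 3665 of them among the 3858. Counts of list members under other settings were added after seeing the data. With a change of 1.5-fold also required, the lower members were 2 of 30 called for G2 and mitosis, 7 of 21 for interferon-stimulated genes, 6 of 16 for cholesterol synthesis, 2 of 7 for heat shock, 1 of 7 for the lysosome and 0 for S phase, ER chaperones, mTOR regulators and the FoxO list. The higher members were then 3 of 10 for the lysosome, 3 of 5 for zinc handling, 2 of 9 for stem, 2 of 5 for T and NK, 1 of 7 for mTOR regulators and 0 for both ribosome lists. On the mean of CMPs and GMPs the counts were 9 lower for S phase, and 6 higher for the lysosome, 4 for stem and 3 for T and NK. On that of CMPs and Lin- + MCSF cells they were 4 lower for heat shock, 4 for mTOR regulators and 2 for FoxO, and 5 higher for the lysosome and 7 for ribosomal proteins. On that of GMPs and Lin- + MCSF cells they were 3 higher and 4 lower for mTOR regulators, 8 higher for ribosomal proteins and 3 lower for primary granules. The erythroid, monocyte, eosinophil, secondary granule, mast cell and Ifi200 counts of the main direction moved by no more than 1.5 times under any of these settings. The number of arrays, 3 or 4 per group, limits the precision, and genes near the lower limit of signal have understated changes.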
